A study of Sus scrofa with 10 samples.

Results

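The genes described here encode the machinery of oxidative phosphorylation, together with PPARGC1A, a transcriptional coactivator of mitochondrial genes. They were taken from the array annotation by name. A gene belonged if its probe set carried exactly 1 symbol that starts with NDUF, UQCR, ATP5, SDH or COX followed by a digit, or that equals CYCS, CYC1 or PPARGC1A. This gave 67 of the 6765 genes measured, each read by its brightest probe set. In adult RFH leaflets PPARGC1A was estimated at 5.32-fold lower than in juvenile RFH leaflets, with log2 values below 4 raised to 4. In the same leaflets CYCS, which encodes cytochrome c, stood at 3.37 times its juvenile RFH level. Of the other 65 genes 64 were not called changed, while 19.3% of all genes were called in that comparison.

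Oxidative phosphorylation makes most of the ATP of an aerobic cell. Complexes I and II pass electrons from NADH and succinate to ubiquinone, complex III passes them on to cytochrome c, complex IV passes them to oxygen, and complex V, the ATP synthase, uses the proton gradient that I, III and IV build. The coactivator PPARGC1A, also called PGC-1alpha, works with nuclear respiratory factors and oestrogen-related receptors and is best known for raising the transcription of these nuclear genes in muscle, brown fat and liver. The valve leaflet is a thin sheet of connective tissue with few vessels, in which interstitial cells lie in matrix under an endothelial layer.

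Total RNA of aortic valve leaflets from female swine was read on Affymetrix porcine arrays, 1 array per sample. The adult RFH group held 4 arrays from animals of 2 years, the juvenile RFH group 3 arrays from animals of 3 months, and the juvenile WT group 3 arrays from animals of 3 months. RFH stands for Rapacz familial hypercholesterolemic, a line of pigs with inherited high blood cholesterol. The WT animals are labelled as the breed Rapacz Wisconsin Miniature Swine and wild type (RFH -/-), so breed and genotype cannot be told apart. All groups ate standard chow, and leaflets went into RNAlater soon after death. The series asks how adult RFH leaflets differ from juvenile RFH leaflets and how juvenile RFH leaflets differ from juvenile WT leaflets. Both comparisons share the juvenile RFH arrays. Adult WT leaflets were not analysed here, so age and years spent with high cholesterol cannot be told apart. Nothing in the labels ties each array to its own animal. The p-values therefore cover only the spread between the samples of a group, which may be technical.

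Values are log2 expression, so a difference of 1 is a doubling. Array medians lay between 6.96 and 7.03. Over the arrays of a group, the 67 genes had a median SD of 0.205 in adult RFH leaflets, 0.0955 in juvenile RFH leaflets and 0.0463 in juvenile WT leaflets, while that of all probe sets was 0.188 for adult RFH, 0.125 for juvenile RFH and 0.0949 for juvenile WT. The valve interstitial cell and fibroblast list, with 11 of its 13 genes measured, averaged 11.90 to 12.45 in adult RFH, 12.68 to 12.75 in juvenile RFH and 12.75 to 12.83 in juvenile WT arrays, and 3 of the 11 fell in adult RFH while 0 rose. A list of macrophage genes, 11 of 15 measured, averaged 10.66 to 11.36 in adult RFH, 10.22 to 10.26 in juvenile RFH and 9.74 to 9.91 in juvenile WT arrays, and 7 of the 11 rose in adult against juvenile RFH. In the same comparison 3 of 11 endothelial genes rose and 1 fell, and 3 of 9 adipocyte genes rose. Of the erythroid genes 3 of 4 fell, and of the smooth muscle genes 1 of 7. The shares of all genes in that comparison were 11.4% that rose and 7.85% that fell. A list of cardiac muscle genes, 18 of 25 measured, averaged 5.53 to 5.65 in adult RFH and 5.35 to 5.38 in juvenile WT arrays. In juvenile RFH arrays it averaged 5.46, 8.16 and 5.68, so juvenile RFH replicate 2 stood apart. In whole tissue, fewer cells of a type and less RNA per cell cannot be told apart. Control probe sets at the 3' end of actin, GAPDH and EF1A transcripts read higher than those at the 5' end, a gap that widens as RNA breaks down. It ran from 1.75 to 2.84 in adult RFH, 2.11 to 2.38 in juvenile RFH and 1.99 to 2.18 in juvenile WT arrays. An exact two-sided permutation test gave p = 0.943 for adult against juvenile RFH and p = 0.2 for juvenile RFH against juvenile WT, where 3 against 3 arrays cannot go below 0.1. The poly-A spike-in controls stood at a mean of 7.12 on adult RFH arrays, 6.32 on those of juvenile RFH and 6.54 on those of juvenile WT, with an exact p of 0.0286 for adult against juvenile RFH, the smallest that 4 against 3 arrays allow, and 0.1 between the juveniles. Their part in the results was not tested.

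The members fall into classes by role. Complex I supplied 5 core subunits, 27 accessory subunits and 3 assembly factors. Complex II supplied SDHA, SDHB, SDHC and SDHD with the assembly factor SDHAF2. Complex III supplied only the small subunits UQCRB and UQCR10, read here beside the electron carrier CYCS. Complex IV supplied 8 subunits, among them NDUFA4, which was first assigned to complex I, and the haem A synthesis enzyme COX10. Complex V supplied 13 subunits and the associated factor ATP5S. No probe set with a single symbol stood for CYC1, and other subunits, such as those encoded by mitochondrial DNA, do not meet the rule and were not analysed here. The annotation uses the older ATP synthase symbols, and these are kept.

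**Figure D1:**
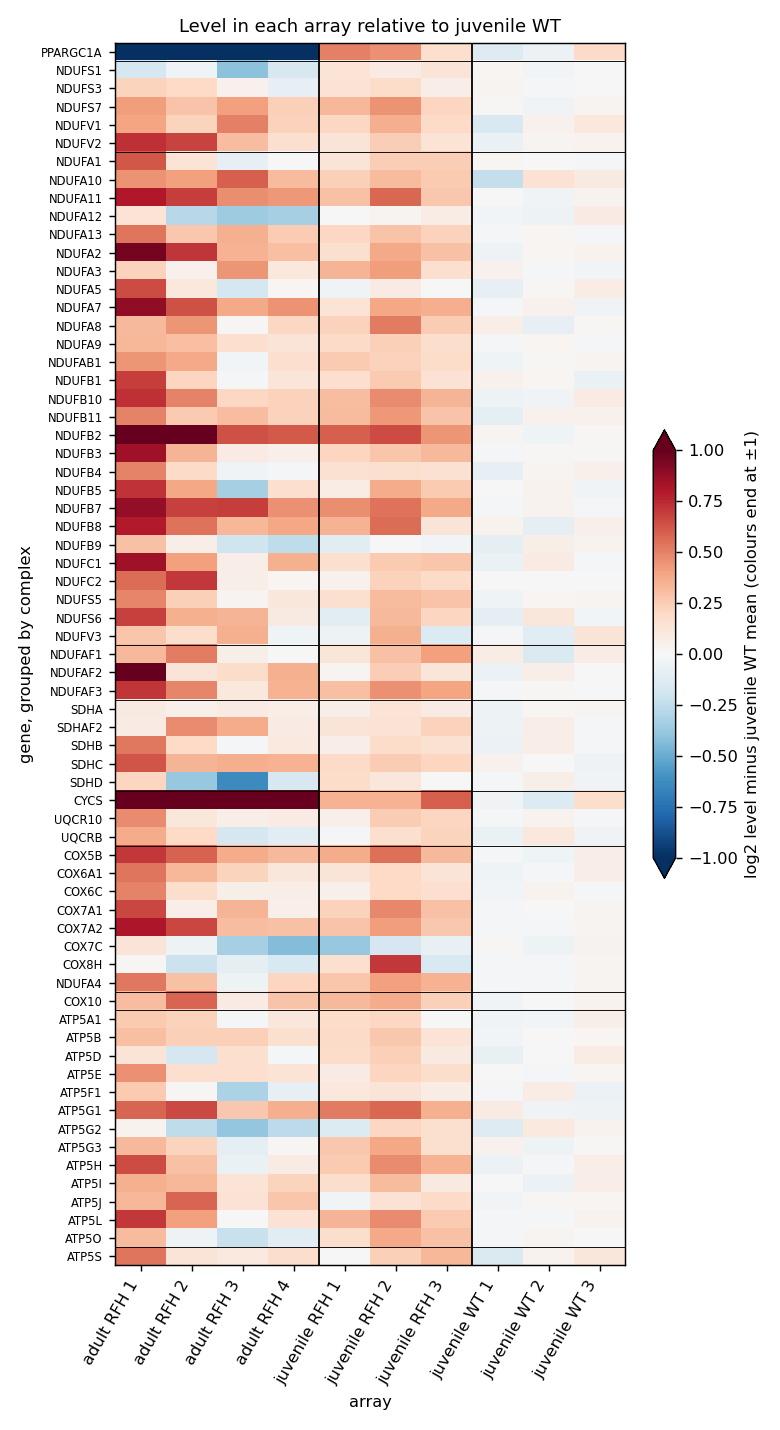
Log2 level of each of the 67 genes (rows, grouped by complex) in each of the 10 arrays (columns), minus the mean of the 3 juvenile WT arrays, with colours ending at 1 above and below. PPARGC1A is dark blue in the 4 adult RFH arrays and CYCS dark red, most other rows are red in adult RFH replicate 1, and most juvenile RFH cells are pale red.

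In adult against juvenile RFH leaflets 1 of the 67 genes rose (CYCS) and 2 fell (PPARGC1A and NDUFS1), where rose and fell stand for an adjusted p under 0.05 in limma's moderated test over 23999 probe sets. Among all 6765 genes 11.4% rose and 7.85% fell, 19.3% in either direction, and among all probe sets 16.8% were called. The share of oxidative phosphorylation genes called was therefore below that of genes in general. The median change was 0.03 over the 67 genes and 0.02 over all genes.

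PPARGC1A, read by 1 probe set, measured 3.65, 3.76, 3.95 and 4.05 in the adult RFH arrays. It measured 6.55, 6.50 and 6.22 in the juvenile RFH arrays and 5.92, 5.99 and 6.24 in the juvenile WT arrays. The highest adult array, at 4.05, lay well below the lowest juvenile array of either kind, at 5.92. The group means were 3.85 ± 0.18 in adult RFH (SD, n = 4), 6.42 ± 0.18 in juvenile RFH and 6.05 ± 0.17 in juvenile WT leaflets (SD, n = 3 each). PPARGC1A fell by 2.57 ± 0.13 (SE) in adult against juvenile RFH leaflets (limma, adjusted p = 2.11e-06), with a 95% interval of -2.86 to -2.28. The adult values lie low on the array's scale, near those of MYH2, a skeletal muscle myosin gene, which read 3.35 to 3.63 in the same arrays. What background the submitters' processing left at such levels is not given in the sources used here, so the size of the fall is uncertain. With all values below 4 raised to 4 the change was -2.41, or 5.32-fold lower, an estimate that still carries the error of 4 against 3 arrays.

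CYCS, the soluble carrier between complexes III and IV and also a trigger of apoptosis once released, moved the other way. Its probe set measured 9.28, 9.63, 9.40 and 9.11 in the adult RFH arrays. It measured 7.52, 7.52 and 7.77 in the juvenile RFH arrays and 7.14, 7.03 and 7.35 in the juvenile WT arrays. The adult values were clear of the juvenile ones by more than 1 log2 unit. CYCS rose by 1.75 ± 0.13 (SE) in adult against juvenile RFH leaflets (limma, adjusted p = 3.45e-05), with a 95% interval of 1.45 to 2.05. The 2 complex III subunits measured did not share that size of change. UQCRB differed by -0.05 ± 0.13 and UQCR10 by 0.01 ± 0.11 (SE).

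NDUFS1, a core subunit of complex I that carries iron-sulphur clusters, gave the third call. It measured 9.20, 9.33, 8.96 and 9.22 in adult RFH, 9.51, 9.45 and 9.50 in juvenile RFH, and 9.39, 9.34 and 9.38 in juvenile WT arrays. The adult arrays lay below all juvenile arrays, though the nearest adult and WT arrays were almost level. NDUFS1 fell by 0.31 ± 0.10 (SE), with an adjusted p of 0.0489 that is just under the threshold. That call ended in 16 of 23 alternative settings, where the change ran from -0.33 to -0.24 and the adjusted p, also in settings that kept the call, from 0.031 to 0.134. They include leaving out any single array other than adult RFH replicate 2.

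**Figure D2:**
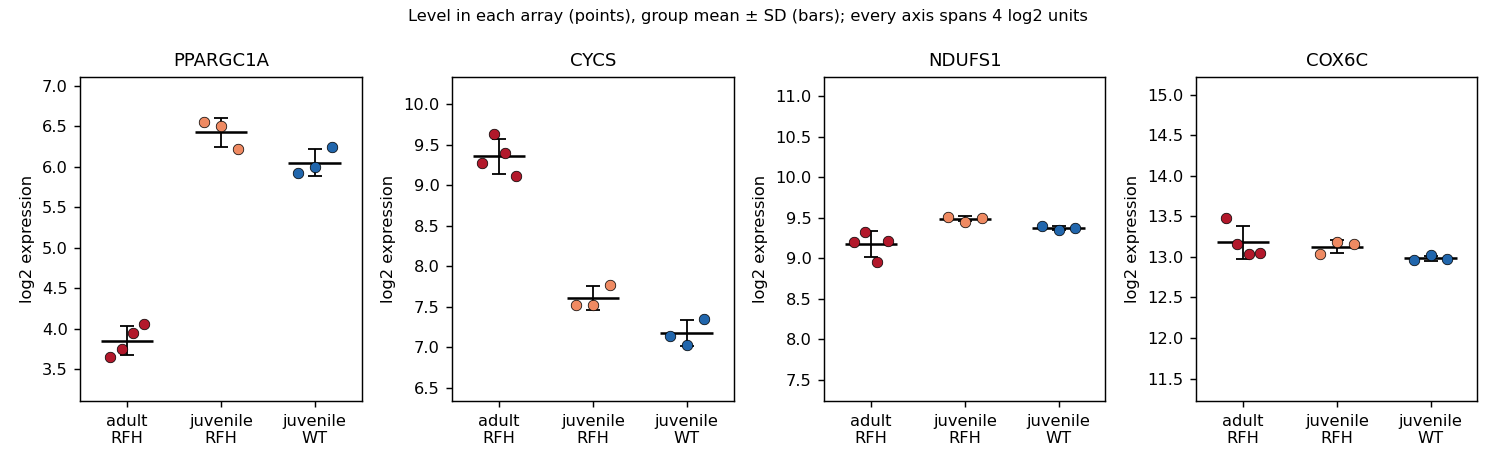
Log2 expression (vertical axes, each spanning 4 log2 units) of PPARGC1A, CYCS, NDUFS1 and COX6C in each array, with group means ± SD as bars. The adult RFH points of PPARGC1A lie at 3.65 to 4.05, below all juvenile points, those of CYCS at 9.11 to 9.63, above all juvenile points, and those of COX6C, a complex IV subunit, at 13.04 to 13.48, among the juvenile points.

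The 64 genes that were not called differed by -0.35 to 0.30 between adult and juvenile RFH leaflets, a range of 0.784 to 1.23 fold. Each of their 95% intervals, taken gene by gene, lay within 1 log2 unit of 0, and the outermost bounds were -0.72 and 0.70. A change of 2-fold or more thus lay outside the interval of each of these genes as read by its brightest probe set. The second, dimmer probe set of NDUFA1 changed by -1.08 (limma, adjusted p = 0.00302), as described below. Changes were above 0 for 43 of the 67 genes, against 52.6% of all genes. At an unadjusted p under 0.05 there were 6 of the 67, 2 higher and 4 lower, against 34.5% of all genes, 19.3% higher and 15.2% lower. Arrays of the 2 groups did not overlap for 2 genes that were higher in adults, CYCS and SDHC, and for 2 that were lower, PPARGC1A and NDUFS1. Among all genes 16.6% were higher and 13.3% lower by that measure. This contrast depended on juvenile RFH replicate 2. Without it, 13 of the 67 were higher in every adult array and 2 lower, against 20.6% and 16.7% of all genes.

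By complex, median changes in adult against juvenile RFH leaflets stayed near 0. The 32 complex I subunits had a median of 0.06, and 24 of them were above 0. NDUFV2, a core subunit with an iron-sulphur cluster, measured 10.74, 10.68, 10.31 and 10.16 in adult RFH arrays, against 10.13, 10.25 and 10.14 in juvenile RFH arrays, a difference of 0.30 ± 0.14 (SE, adjusted p = 0.166). The groups overlapped for it. The assembly factor NDUFAF2 measured 8.60, 7.72, 7.77 and 7.94 in adult RFH arrays, against 7.62, 7.84 and 7.71 in juvenile RFH arrays, so that 1 adult array carried most of its difference of 0.29 ± 0.18 (SE, adjusted p = 0.322).

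Of complex II, SDHC and SDHD, the pair that anchors succinate dehydrogenase in the membrane, lay on opposite sides of 0. SDHC measured 9.999, 9.71, 9.73 and 9.71 in adult RFH arrays, against 9.56, 9.62 and 9.58 in juvenile RFH arrays, a difference of 0.20 ± 0.09 (SE, adjusted p = 0.169). SDHD measured 12.02, 11.43, 11.17 and 11.64 in adult RFH arrays, against 11.99, 11.92 and 11.80 in juvenile RFH arrays, a difference of -0.34 ± 0.17 (SE, adjusted p = 0.193). Neither passed the test, and whether the 2 genes differ from each other was not tested. The flavoprotein SDHA, which oxidises succinate, hardly varied, at 10.22, 10.17, 10.20 and 10.19 in adult RFH arrays, against 10.19, 10.26 and 10.20 in juvenile RFH arrays.

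The 8 complex IV subunits had a median of 0.05 and the 13 complex V subunits a median of -0.04, with 5 of the 13 above 0. ATP5O, which links the head of the ATP synthase to its outer stalk, measured 12.56, 12.20, 12.03 and 12.13 in adult RFH arrays, against 12.42, 12.63 and 12.54 in juvenile RFH arrays. Its difference of -0.30 ± 0.12 (SE, adjusted p = 0.119) had the smallest p of complex V. The head subunits ATP5A1 and ATP5B differed by 0.01 ± 0.10 and 0.03 ± 0.08 (SE). Adult RFH replicate 1 weighed on these values. Without it 5 of the 67 genes were called, while 658 of all 6765 genes rose and 484 fell. ATP5O (-0.41, adjusted p = 0.0165), NDUFA12 (-0.35, adjusted p = 0.0207) and SDHD (-0.49, adjusted p = 0.0288) joined PPARGC1A and CYCS. NDUFS1 dropped out (adjusted p = 0.0703), and the median of the 67 became -0.05.

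**Figure D3:**
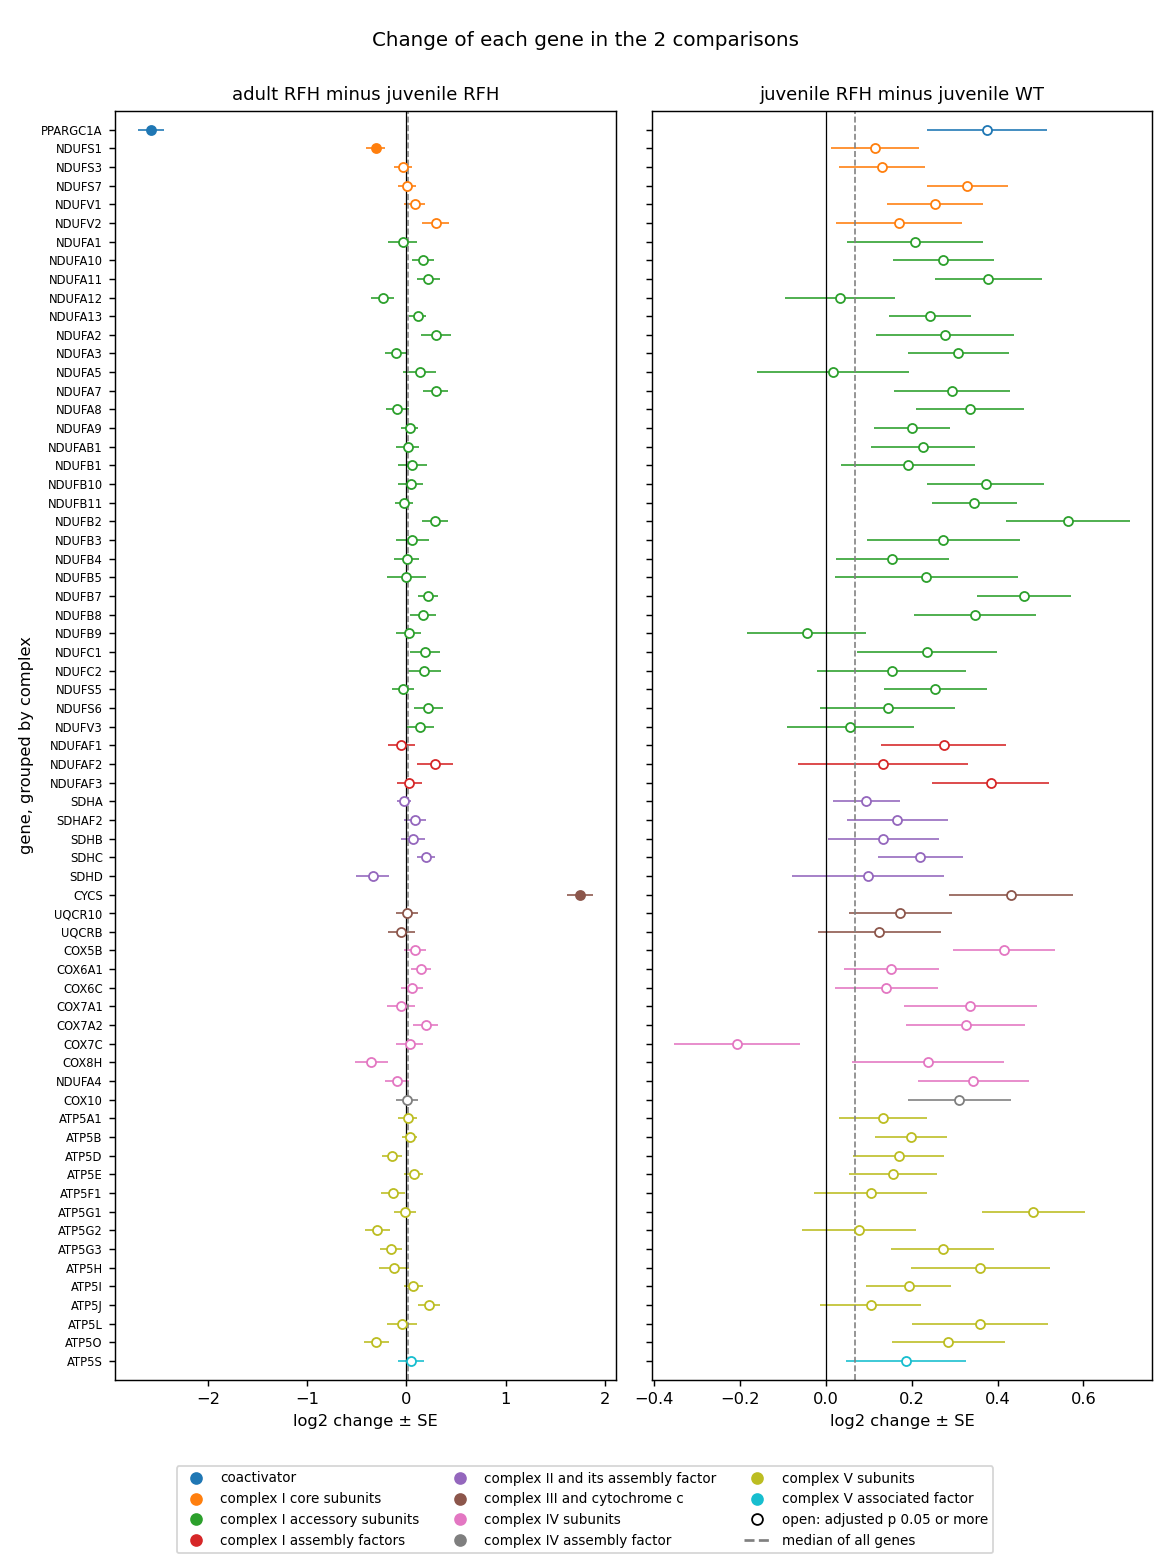
Log2 change ± SE of each of the 67 genes, grouped by complex, in adult RFH minus juvenile RFH (left) and in juvenile RFH minus juvenile WT (right), with separate horizontal scales. Filled points passed the test, which were PPARGC1A, NDUFS1 and CYCS on the left and 0 genes on the right, where 65 of 67 points lie right of 0 and the dashed line marks the median of all genes.

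In juvenile RFH against juvenile WT leaflets the differences were small and nearly all ran one way. None of the 67 genes passed limma's test, and 0.133% of all genes did, of which 6 genes (0.0887%) rose and 3 (0.0443%) fell. Of all probe sets 0.117% passed. At an unadjusted p under 0.05 there were 26 of the 67, all 26 of them higher in juvenile RFH, against 15.1% of all genes, 11% higher and 4.02% lower. The change was above 0 for 65 of the 67 genes (97.0%), against 65.6% of all genes. All juvenile RFH arrays lay above all juvenile WT arrays for 51 of the 67 (76.1%), against 26.3% of all genes, and the reverse held for 1, against 9.53% of all genes. The median change was 0.23, or 1.17 fold, against 0.07 over all genes.

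The mean of the 66 genes other than PPARGC1A was 10.41, 10.55 and 10.44 in the juvenile RFH arrays and 10.21, 10.24 and 10.26 in the juvenile WT arrays. The 2 groups did not overlap in it. Nor did they in the mean of all genes, at 8.33, 8.39 and 8.38 in the juvenile RFH arrays and 8.28, 8.29 and 8.31 in the juvenile WT arrays. Of the cell type lists, 5 were higher in every juvenile RFH array. The macrophage list stood at 10.22, 10.25 and 10.26 in the juvenile RFH arrays and 9.91, 9.74 and 9.88 in the juvenile WT arrays, and the endothelial list at 8.57, 8.83 and 8.62 in juvenile RFH and 8.23, 8.42 and 8.53 in juvenile WT arrays. The lymphocyte list stood at 5.37, 5.48 and 5.35 in juvenile RFH and 5.09, 5.26 and 5.29 in juvenile WT arrays, and the erythroid list at 7.95, 8.43 and 7.40 in juvenile RFH and 6.73, 6.73 and 7.17 in juvenile WT arrays. The cardiac muscle list, given above, was the fifth. No gene of these lists passed the test between the juveniles, and their part in the result was not tested. These 66 genes were read on the same arrays, so they are not independent of each other, and no p is given for their mean.

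The higher values ran through all 5 complexes, though no gene passed the test. Among all genes 26.3% were higher in every juvenile RFH array than in every juvenile WT array. The 5 core subunits of complex I were each higher in every juvenile RFH array, and so were 27 of its 32 subunits, with a median of 0.24. NDUFB7, an accessory subunit of the membrane arm, had the smallest adjusted p of the 67. It measured 9.55, 9.63 and 9.46 in juvenile RFH arrays, against 9.07, 9.12 and 9.07 in juvenile WT arrays, a difference of 0.46 ± 0.11 (SE, adjusted p = 0.137). NDUFB2, another membrane arm subunit, showed 10.81, 10.87 and 10.65 in juvenile RFH arrays, against 10.24, 10.17 and 10.23 in juvenile WT arrays, and its 0.56 ± 0.14 (SE, adjusted p = 0.155) was the widest difference of the 67. The assembly factor NDUFAF3 showed 8.48, 8.64 and 8.58 in juvenile RFH arrays, against 8.17, 8.19 and 8.19 in juvenile WT arrays. In each of the 3 genes the groups were apart by more than the spread of either, yet the adjusted p missed the threshold.

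Complex II was higher in every array for 3 of its 5 genes, against 26.3% of all genes, with a median of 0.13. Its 5 genes are few for such a comparison. SDHC had the smallest p among them, with a difference of 0.22 ± 0.10 (SE, adjusted p = 0.391). Complex IV had a median of 0.28, with 6 of 8 subunits higher in every array. COX5B, a regulatory subunit, measured 11.88, 12.06 and 11.83 in juvenile RFH arrays, against 11.49, 11.47 and 11.57 in juvenile WT arrays, a difference of 0.41 ± 0.12 (SE, adjusted p = 0.192). COX10, which makes a precursor of haem A, differed by 0.31 ± 0.12 (SE, adjusted p = 0.315). Complex V had a median of 0.19, with 10 of 13 subunits higher in every array.

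CYCS stood above juvenile WT too, by 0.43 ± 0.14 (SE, adjusted p = 0.251), with juvenile RFH arrays of 7.52 to 7.77 that did not overlap juvenile WT arrays of 7.03 to 7.35. PPARGC1A differed by 0.38 ± 0.14 (SE, adjusted p = 0.303), and 1 juvenile RFH array, at 6.22, lay just under a juvenile WT array, at 6.24. The 95% interval of that difference was 0.07 to 0.69, far from the change of -2.57 between adult and juvenile RFH leaflets.

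Exceptions were few. COX7C, a small complex IV subunit, was the only one of the 67 lower in every juvenile RFH array, with 12.27, 12.48 and 12.57 in juvenile RFH arrays, against 12.66, 12.59 and 12.68 in juvenile WT arrays. Its difference was -0.21 ± 0.15 (SE, adjusted p = 0.611), and its second, dimmer probe set was lower as well, by -0.61. NDUFB9 differed by -0.04 ± 0.14 (SE) and overlapped.

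**Figure D4:**
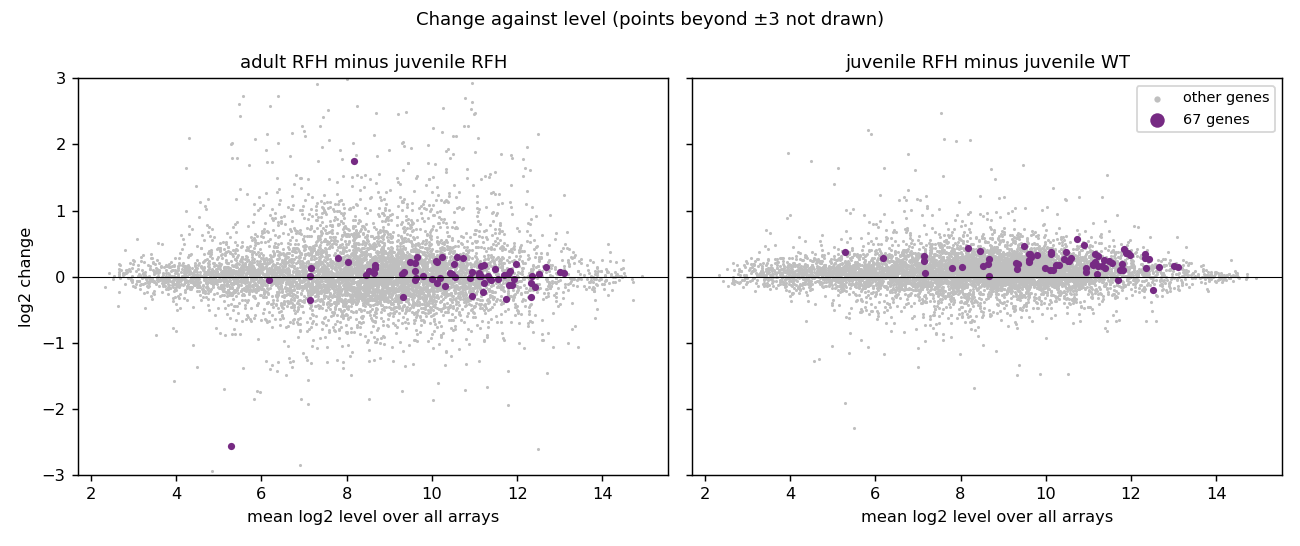
Log2 change (vertical axis) against mean log2 level over all 10 arrays (horizontal axis) for the 67 genes (purple) and all other genes (grey), in adult RFH minus juvenile RFH (left) and juvenile RFH minus juvenile WT (right). On the left 16 genes and on the right 1 gene lie beyond 3 log2 units and are not drawn. On the right the purple points sit mostly above 0 at every level, with a median of 0.23 against 0.07 for all genes.

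Many of the 67 probe sets are bright, and the background was therefore also read at like levels. Above the lower quartile of the 67 levels, 9.55, lay 2107 genes, 50 of them members. Among these genes 31.6% were higher in every juvenile RFH array than in every juvenile WT array, 64.8% had a change above 0 and the median change was 0.06. Of the 50 members 41 were higher in every array, 48 had a change above 0 and the median was 0.23.

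How the test treats the spread decided the count of calls between juveniles. With only the 6 juvenile arrays in the fit, which leaves out the wider spread of the adult arrays, 6 of the 67 genes rose. These were ATP5G1, COX5B, NDUFA4, NDUFAF3, NDUFB2 and NDUFB7. Of all 6765 genes 245 rose and 81 fell in that fit, and 872 probe sets were called in place of 28. With array weights 9 of the 67 rose, the same 6 with NDUFA11, NDUFB11 and NDUFS7. Of all 6765 genes 285 rose and 112 fell with these weights, and 1171 probe sets were called. In every other setting tried, 0 of the 67 were called.

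Single arrays moved the 66 genes together. Adult RFH replicate 1 was the highest adult array for 52 of the 66 (78.8%), against 30.8% of all genes, and lay a median of 0.33 above the mean of the other adult arrays. The mean of the 66 genes was 10.75, 10.56, 10.38 and 10.39 in the 4 adult RFH arrays. In the same arrays the macrophage list averaged 11.18, 11.36, 10.69 and 10.66, the interstitial cell list 12.10, 11.90, 12.45 and 12.44, the endothelial list 9.35, 9.56, 8.67 and 9.18, the adipocyte list 6.77, 6.62, 6.12 and 5.998, the lymphocyte list 5.72, 6.56, 5.44 and 5.28, and the 3' to 5' difference 1.75, 2.25, 2.84 and 2.12. Replicates 1 and 2 were thus high in the 66 genes and in the macrophage, endothelial, adipocyte and lymphocyte lists and low in the interstitial cell list. The part of these in the results was not tested. The SD of the 66-gene mean was 0.18 in adult RFH arrays, 0.07 in juvenile RFH arrays and 0.03 in juvenile WT arrays.

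**Figure D5:**
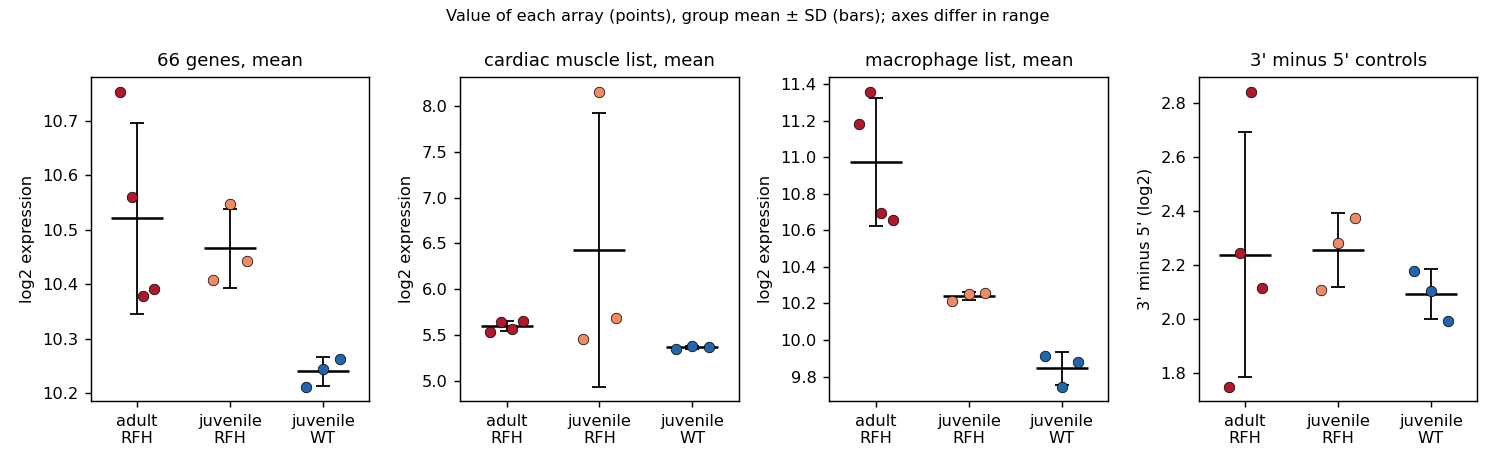
Mean log2 level per array of the 66 genes other than PPARGC1A, of the cardiac muscle list and of the macrophage list, and the 3' minus 5' difference of the control probe sets, with group means ± SD as bars and a separate vertical axis in each panel. The 66-gene mean is 10.41 to 10.55 in juvenile RFH and 10.21 to 10.26 in juvenile WT arrays, and juvenile RFH replicate 2 is alone at 8.16 in the cardiac panel.

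Juvenile RFH replicate 2 was the highest juvenile RFH array for 53 of the 66 genes (80.3%), against 37.9% of all genes, by a median of 0.11 above the mean of the other 2. In this array 11 of the 18 cardiac muscle genes lay more than 2 log2 units above the mean of the other juvenile RFH arrays. MYH7, the slow cardiac myosin, measured 10.59 in it, against 5.32 and 5.82 in the others. COX8H, a heart-type complex IV subunit, followed that array, with 7.28, 7.82 and 6.96 in juvenile RFH arrays, 7.13, 6.90, 7.02 and 6.96 in adult RFH arrays and 7.10, 7.10 and 7.14 in juvenile WT arrays. Without juvenile RFH replicate 2, 63 of the 67 genes had a change above 0 and the median was 0.19 against 0.06 over all genes. With the cardiac list mean as a covariate the median was 0.19 and 61 changes were above 0. That list stood apart only in juvenile RFH replicate 2, so the covariate is not a separate check from leaving that array out. In adult against juvenile RFH leaflets, PPARGC1A changed by -2.53 and CYCS by 1.71 without that array, and both remained called.

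Genes with tissue-specific or duplicate forms could be set side by side. Of complex IV subunit VIIa, COX7A1 is the form of heart and skeletal muscle and COX7A2 the general form. COX7A1 measured 10.07, 9.46, 9.73 and 9.45 in adult RFH, 9.63, 9.87 and 9.69 in juvenile RFH and 9.37, 9.39 and 9.42 in juvenile WT arrays. COX7A2 measured 12.47, 12.34, 11.97 and 11.96 in adult RFH, 11.95, 12.08 and 11.94 in juvenile RFH and 11.65, 11.65 and 11.69 in juvenile WT arrays. Both were higher in every juvenile RFH array than in juvenile WT, by 0.34 ± 0.15 and 0.33 ± 0.14 (SE), and neither passed the test.

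The genes ATP5G1, ATP5G2 and ATP5G3 encode the same mature ring subunit of the ATP synthase with different targeting peptides. Between juvenile RFH and juvenile WT leaflets they differed by 0.48 ± 0.12, 0.08 ± 0.13 and 0.27 ± 0.12 (SE), with adjusted p of 0.145, 0.868 and 0.379. ATP5G1 showed 11.09, 11.14 and 10.93 in juvenile RFH arrays, against 10.65, 10.53 and 10.52 in juvenile WT arrays. Between adult and juvenile RFH leaflets they differed by -0.01 ± 0.11, -0.29 ± 0.12 and -0.15 ± 0.11 (SE), and none of the 3 passed. Whether the 3 genes differ from each other was not tested.

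Of the 67 genes 16 had more than 1 probe set, 86 probe sets in all. They agreed on the side of the threshold in both comparisons except for NDUFA1, an X-linked accessory subunit of complex I. Its brighter probe set differed by -0.04 ± 0.15 (SE, adjusted p = 0.894) between adult and juvenile RFH leaflets. Its second probe set measured 6.76, 6.33, 6.85 and 6.996 in adult RFH arrays, against 8.08, 7.89 and 7.48 in juvenile RFH arrays, and fell by 1.08 ± 0.18 (SE, adjusted p = 0.00302). Sizes differed in NDUFS3, a core subunit, where the dimmest of 3 probe sets was 0.73 ± 0.23 (SE) higher in juvenile RFH than in juvenile WT leaflets and the brightest 0.13 ± 0.10, and in ATP5L, where they were -0.30 ± 0.16 and 0.36 ± 0.16. Between juvenile RFH and juvenile WT leaflets the 19 further probe sets were above 0 in 14 cases and below 0 in 5. For 4 genes a dimmer probe set turned the direction, which besides ATP5L were NDUFV2, where 1 of 2 dimmer sets was -0.17 and the brightest 0.17, ATP5S, at -0.09 and 0.19, and SDHA, at -0.09 and 0.09. Over all 86 probe sets 79 changes were above 0, against 54.3% of all probe sets on the array. Between adult and juvenile RFH leaflets 9 of the 19 lay on the other side of 0 from the brightest set. PPARGC1A, CYCS and NDUFS1 had 1 probe set each, so no second reading of these 3 exists.

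Of the 99 measured genes in 5 lists of neighbouring pathways, 15 were called in adult against juvenile RFH leaflets (15.2%), against 19.3% of all genes. The share was 27.8% for glycolysis (5 of 18 genes) and 10% to 11.1% for 3 other lists. For partners of PGC-1 it was 21.4% (3 of 14 genes), near that of all genes. Of 30 listed partners of PGC-1 and genes of mitochondrial biogenesis, 14 were measured, 2 rose and 1 fell in adult against juvenile RFH leaflets. PRKAA1, a catalytic subunit of the energy sensor AMPK, rose by 0.61 ± 0.12 (SE, adjusted p = 0.00802). Its regulatory partner PRKAG2 rose by 0.44 ± 0.11 (adjusted p = 0.0242). SIRT3, the mitochondrial deacetylase, fell by 0.36 ± 0.11 (adjusted p = 0.0488), a call that 16 of 23 alternative settings ended. The list's median was 0.00.

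Of 24 listed genes of pyruvate dehydrogenase and the citric acid cycle, 20 were measured, 1 rose and 1 fell, with a median of -0.02. OGDH, a subunit of 2-oxoglutarate dehydrogenase, rose by 0.50 ± 0.12 (SE, adjusted p = 0.017). PDK4, the kinase that switches pyruvate dehydrogenase off, measured 11.07, 10.40, 11.10 and 11.20 in adult RFH arrays, against 11.36, 12.02 and 12.01 in juvenile RFH arrays, and fell by 0.85 ± 0.25 (adjusted p = 0.0407). Of 20 genes of fatty acid oxidation, all measured, 2 rose and 0 fell, with a median of 0.04. CPT1A, which starts the transfer of fatty acids into mitochondria, measured 11.07, 11.48, 10.99 and 11.06 in adult RFH arrays, against 9.95, 10.20 and 9.71 in juvenile RFH arrays, and rose by 1.20 ± 0.19 (SE, adjusted p = 0.0027). The electron carrier subunit ETFB rose by 0.52 ± 0.15 (adjusted p = 0.0351).

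Of 22 listed genes of glycolysis, 18 were measured, 4 rose and 1 fell, with a median of 0.10. SLC2A3, the glucose transporter GLUT3, measured 11.15, 11.70, 11.44 and 11.64 in adult RFH arrays, against 8.40, 8.39 and 8.50 in juvenile RFH arrays, and rose by 3.05 ± 0.13 (SE, adjusted p = 5.36e-07). ENO1, an enolase, rose by 0.69 ± 0.12 (adjusted p = 0.00362) and GPI, which makes fructose 6-phosphate, by 0.43 ± 0.09 (adjusted p = 0.0116). The fourth gene that rose was LDHA, a lactate dehydrogenase subunit, by 0.69 ± 0.18 (adjusted p = 0.0251). PFKM, the muscle-type phosphofructokinase, fell by 0.63 ± 0.14 (adjusted p = 0.0126). Of 35 listed genes of mitochondrial import, carriers and membranes, 27 were measured, 3 rose and 0 fell, with a median of 0.06. The uncoupling protein gene UCP2 rose by 0.95 ± 0.14 (SE, adjusted p = 0.00183), the outer membrane channel gene VDAC2 by 0.73 ± 0.21 (adjusted p = 0.0395) and the import chaperone gene HSPA9 by 0.39 ± 0.12 (adjusted p = 0.0448).

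Several of these calls were fragile. Of 23 alternative settings, 14 ended the call of VDAC2 and 14 that of HSPA9, 11 that of PDK4, 9 that of ETFB, 7 those of PRKAG2 and LDHA, 3 that of OGDH and 2 that of GPI. For each of these 8 genes leaving out some single juvenile RFH array was among them. With the mean of all probe sets of a gene, the change of VDAC2 was 0.26 (adjusted p = 0.106) and that of PRKAA1 0.35 (adjusted p = 0.0347). The calls of PRKAA1, CPT1A, SLC2A3, ENO1, PFKM and UCP2 held in every setting that gave them a value. SLC2A3 and UCP2 are also known from macrophages, whose marker list was higher in adult RFH leaflets, and its part in these values was not tested.

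Between juvenile RFH and juvenile WT leaflets 0 genes of the 5 neighbouring lists passed limma's test. The medians were 0.05 for PGC-1 partners, 0.13 for the citric acid cycle, 0.09 for fatty acid oxidation, 0.22 for glycolysis and 0.15 for import and carriers, against 0.07 over all genes. Higher in every juvenile RFH array were 3 of 14, 10 of 20, 6 of 20, 10 of 18 and 16 of 27. In that order the reverse held for 2, 0, 1, 0 and 2. By that measure 26.3% of all genes were higher and 9.53% lower. At an unadjusted p under 0.05 there were 2 higher and 2 lower of 14, 4 higher and 1 lower of 20, 0 higher and 1 lower of 20, 5 higher and 0 lower of 18, and 5 higher and 0 lower of 27, in the same order. The shares of all genes were 11% higher and 4.02% lower, and these lists are small for such a comparison. IDH2, the NADP-dependent isocitrate dehydrogenase of mitochondria, measured 9.83, 9.90 and 9.74 in juvenile RFH arrays, against 9.17, 9.21 and 9.19 in juvenile WT arrays, a difference of 0.63 ± 0.13 (SE, adjusted p = 0.0965). TFB1M, which modifies mitochondrial ribosomal RNA, differed by 0.45 ± 0.12 (SE, adjusted p = 0.168). ACADL, the long-chain acyl-CoA dehydrogenase, was lower in every juvenile RFH array, by -0.49 ± 0.16 (SE, adjusted p = 0.245).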

How the data were processed

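The authors deposited 1 table of log2 expression values for 10 arrays and 24123 probe sets. The scale was read from the values. The submitters' processing notes name R 2.15.2, and how the arrays were background-corrected, normalized and summarised is not given in the sources used here. After 124 control probe sets were set aside, 23999 were tested, of which 10069 carry 1 symbol, 198 several and 13732 none. All 67 gene IDs were found in the RefSeq gene table.

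Group means were fitted to all 10 arrays by limma 3.58.1 under R 4.3.3, with lmFit, eBayes with no intensity trend, and 7 residual plus 3.57 prior degrees of freedom. Tests were two-sided and Benjamini-Hochberg adjusted over 23999 probe sets, and the threshold was an adjusted p of 0.05. SE are moderated. Intervals are 95% per gene. The fit was tested on simulated data. The members and lists were chosen with earlier results of these data known. PPARGC1A was named in any case, and in each class up to 4 called members per direction, or the member with the smallest p. Of each neighbouring list up to 3 called genes per direction were named. Members shown beyond this, and LDHA, were picked after their values were seen. The number of arrays limits the precision. The alternatives were quantile normalization, median centring, cyclic loess, dim probe sets left out, only the 2 compared groups fitted, a trended robust prior, array weights, a replicate block, values below 4 raised to 4, averaging the probe sets of a gene, adjustment over 1 probe set per gene, an added change of 0.5, the cardiac list mean as a covariate, and each array left out.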

Additional observations from a re-analysis of the deposited data

Results flagged for a closer look

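By Dixon's ratio at its 95% level, 110 sets of values from the 4 adult RFH arrays were examined for 1 array far from the rest. In 5 of them there was one. The 110 held the 67 oxidative phosphorylation genes, genes named from the neighbouring lists, array means of classes and lists, and the control measures. Chance alone gives this in about 1 of 20 groups. The 110 are not independent, since the means hold genes that were also examined alone. Of the 5, 4 have adult RFH replicate 1 far above the others. SDHC, a membrane anchor of complex II, measured 9.999 in it, against 9.71 to 9.73 in the other adult arrays. ATP5E, of the ATP synthase stalk, measured 13.33 in it, against 13.00 to 13.04 in the others. UQCR10, of complex III, measured 11.47 in it, against 11.05 to 11.10 in the others. NDUFA12, of complex I, measured 11.42 in it, against 10.93 to 11.01 in the others. The kinase gene PDK4 measured 10.40 in adult RFH replicate 2, against 11.07 to 11.20 in the others.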

How the results depend on the processing

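The fall of PPARGC1A (-2.67 to -2.41, adjusted p at most 0.000139) and the rise of CYCS (1.66 to 1.84, adjusted p at most 0.000671) held in every setting that gave them a value. PPARGC1A has no value where dim probe sets were left out. For adult against juvenile RFH the number of oxidative phosphorylation genes called was 2 to 5 when single arrays were left out, with 5 without adult RFH replicate 1, and the median change ran from -0.05 to 0.08. For juvenile RFH against juvenile WT the number called was 0, except 6 with only the 2 groups in the fit and 9 with array weights, and the median ran from 0.19 to 0.27. Pathway list genes called in adult against juvenile RFH numbered 15, and 7 to 9 with only the 2 groups in the fit, with the cardiac covariate or without any 1 juvenile RFH array. In juvenile RFH against juvenile WT they numbered 9 with only the 2 groups, 7 with array weights and 1 without adult RFH replicate 2.

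Uncalled changes near 0 crossed it. ATP5G1 in adult against juvenile RFH was 0.0145 with median centring, 0.00682 with cyclic loess, 0.0217 with the replicate number as a block, 0.0244 with the cardiac covariate and -0.0793 to 0.0512 without single arrays. COX7A1 was 0.0219 with the block, 0.00636 with the covariate and -0.185 to 0.0219 without single arrays. COX10 was -7.38e-05 with array weights, -0.0224 with the mean of probe sets and -0.0852 to 0.0807 without single arrays. ATP5G2 in juvenile RFH against juvenile WT was -0.00977 with the covariate. The cause was not tested. Same-numbered samples did not deviate together (r of -0.156 to 0.185). The block left 2 genes called in adult against juvenile RFH, since NDUFS1 missed (adjusted p = 0.0973), and 0 in the juveniles, with 3922 and 17 probe sets called in place of 4025 and 28. Over the settings that tested every probe set, 2243 to 4965 were called in adult against juvenile RFH and 2 to 1171 between the juveniles. A planned description of promoter motifs was not run. With 3 or 4 arrays per group, changes such as the median of 0.23 between juveniles are near the size of 2 SE of a single gene.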
